A study of Mus musculus with 48 samples.

Results

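The mitochondrial carrier family (Slc25a genes) was followed in mouse liver that lacked C/EBPα or HNF4α, transcription factors of the hepatocyte encoded by Cebpa and Hnf4a. Members were the protein-coding genes whose symbol starts with Slc25a, other than Slc25a15 and Slc25a20, that reached 10 normalized reads in 2 or more of the 8 RNA libraries. Of 42 genes that met the name rule, 38 met the value rule and are described here, out of 17771 genes of any kind that met it and 37583 listed. The remaining 4, Slc25a2, Slc25a18, Slc25a31 and Slc25a41, had values between 0 and 19, with at most 1 library at 10 or more, and were not tested.

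Carriers of this family sit mostly in the inner mitochondrial membrane, which is closed to charged metabolites, and exchange nucleotides, phosphate, carboxylates, amino acids, cofactors and iron between the matrix and the cytosol. In liver they connect the cytosolic and mitochondrial steps of the urea cycle, gluconeogenesis, fatty acid synthesis and the malate-aspartate shuttle. In the fetus the liver is also the site of red cell formation, for which iron, glycine and glutathione carriers serve heme synthesis.

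All mice were F1 mice (C57Bl6/CBA), untreated, and the tissue was liver. The 3 wild-type (WT) libraries were compared with 3 from C/EBPa lox/lox / Alfp-Cre mice and 2 from HNF4a lox/lox / Alfp-Cre mice. In both knockouts (KO) Cre recombinase is driven by Alfp regulatory sequence, active in the liver lineage, so blood, vessel and other cells of the liver keep the gene. The labels give no Cre-only or lox-only control, and no source says whether livers were pooled or whether each RNA library is a separate mouse, so p-values measure the spread between these libraries. The sample labels give an age of 60 days after birth for the RNA samples and the series text gives E18.5 (embryonic days are written E and postnatal days P). Afp (alpha-fetoprotein), a fetal liver gene, stood at 625821, 499143 and 706964 in WT. Binding of both factors was measured by chromatin immunoprecipitation and sequencing (ChIP-seq) in liver at E15.5, E18.5, P0.5, P14 and P60, with 2 replicates each. These mice are labelled wild type.

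RNA values are reads per gene divided by a size factor per library (normalized reads), with no correction for transcript length, so levels are compared between libraries and not between genes. The normalized totals were 20.4 to 22.5 M in WT, 13.4 to 16.4 M in the C/EBPα KO, and 26.0 and 20.0 M in the HNF4α KO. The carriers together took 0.267% to 0.316% of them in WT and 0.326% to 0.368% in the C/EBPα KO. In the HNF4α KO they took 0.313% and 0.352%. Shares of the total thus ranked the C/EBPα KO above WT, and the direction of change depends on the scaling. Cebpa stood at 9999, 9594 and 5511 in WT and 322, 419 and 998 in the C/EBPα KO, a change of -3.98 ± 0.44 on the log2 scale (SE, limma, adjusted p = 0.000413). Hnf4a stood at 9098, 4948 and 6718 in WT and 1238 and 2444 in the HNF4α KO (-1.95 ± 0.45, limma adjusted p = 0.033). Each factor was also below WT in the other knockout, Hnf4a at 2492, 2530 and 4510 in the C/EBPα KO and Cebpa at 3886 and 4500 in the HNF4α KO, without passing (limma adjusted p = 0.188 and 0.299). Summed over 9 hepatocyte markers, none of which was at 0 in any library, the level was 2641675 to 4060759 in WT, 243743 to 924081 in the C/EBPα KO and 1201882 to 1641649 in the HNF4α KO. Alb made up most of the WT sums, and the markers differed among themselves: 2 of 9, Fgb and Tat, passed as lower in the C/EBPα KO, where Ttr had a log2 change of 0.00. In the HNF4α KO Apob alone passed, and Ahsg was at 563732 and 555541 against 378361 to 464801 in WT. Summed over 8 bile duct markers, all above 0, the level was 1551 to 3018 in WT, 9179 to 11374 in the C/EBPα KO and 2587 to 2966 in the HNF4α KO. Summed over 6 macrophage markers, all above 0, it was 8345 to 10351 in WT, 3576 to 16604 in the C/EBPα KO and 19500 to 21279 in the HNF4α KO. C1qb, at 10443 and 9291, was the largest part of the HNF4α KO sums. Of the 6 markers, 1 passed as higher there, and Emr1, at 491 and 542, lay within its WT range of 300 to 848. In such bulk samples, fewer hepatocytes and less RNA per hepatocyte cannot be told apart, and the part of these markers in the changes below was not tested. The first library of the HNF4α KO also held skeletal muscle markers, all 14 above 0 and summing to 668871 against 89 to 1512 in the other 7 libraries. The labels' protocols speak of male mice, but Xist, the RNA of the inactive X chromosome, ranged from 92 to 27836 within WT and was at 1040 or more in each KO library. Its part in the values of the X-linked carriers Slc25a5, Slc25a14 and Slc25a43 was not tested.

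In the C/EBPα KO the pyrimidine nucleotide carrier Slc25a33 fell 4.98-fold and the coenzyme A carrier Slc25a42 fell 5.96-fold. These were 2 of the 38 carriers (5.26%) with an adjusted p under 0.05 and a lower level, beside 2.86% of all genes kept. The orphan carrier Slc25a43 was also past the threshold, as 1 higher carrier (2.63%, all genes 0.883%), which makes 3 in all (7.89%, all genes 3.75%). Slc25a43 met the value rule through its KO libraries, so its call and the count of 3 are given as a description only. The median log2 change of the carriers was -0.26, against 0.03 over all genes kept.

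Slc25a33 (ENSMUSG00000028982, chr4:149118145-149148386, minus strand, mouse build mm9) carries pyrimidine nucleotides into mitochondria, where they serve DNA and RNA synthesis. It stood at 1207, 1344 and 1270 normalized reads in WT (mean 1274 ± 68.6, SD, n = 3), at 190, 189 and 460 in the C/EBPα KO (280 ± 156, n = 3) and at 1275 and 1528 in the HNF4α KO (1402 ± 179, n = 2). Each C/EBPα KO library lay below each of the other 5 libraries, and both HNF4α KO libraries lay within or above the WT range. The change in the C/EBPα KO was -2.32 ± 0.37 on the log2(value + 1) scale (SE, 4.98-fold lower, limma adjusted p = 0.00495). In the HNF4α KO it was 0.13, with an adjusted p of 0.88. Compared directly, the C/EBPα KO was lower than the HNF4α KO by 5.46-fold (log2 -2.45 ± 0.42, limma adjusted p = 0.0107), the only carrier of 38 with an adjusted p under 0.05 in that comparison (2.63%, all genes 3.48%, of which 1.87% lower and 1.61% higher). That difference did not pass without HNF4α KO replicate 1 (adjusted p = 0.114) or replicate 2 (0.0772).

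Slc25a42 (ENSMUSG00000002346, chr8:72708239-72736204, minus strand) exchanges coenzyme A for adenine nucleotides. Its values were 8602, 3089 and 3235 in WT, 912, 307 and 1442 in the C/EBPα KO, and 651 and 1004 in the HNF4α KO. No KO library reached the lowest WT library, and WT replicate 1 stood far above the other WT libraries. The change in the C/EBPα KO was -2.58 ± 0.57 (5.96-fold lower, limma adjusted p = 0.0297), and without WT replicate 1 it was -2.09 with an adjusted p of 0.149. Of the 8 fits that each left out a library, the call held only without C/EBPα KO replicate 3, and the other 7 gave an adjusted p of 0.0512 to 0.149. Its HNF4α KO estimate was -2.45 ± 0.64 (limma adjusted p = 0.0541), which did not pass the threshold.

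Slc25a13 (ENSMUSG00000015112, chr6:5991219-6167173, minus strand) encodes citrin, the aspartate-glutamate carrier of liver that supplies cytosolic aspartate to the urea cycle. It stood at 4690, 4175 and 4654 in WT (4506 ± 288, n = 3), at 1637, 1213 and 2807 in the C/EBPα KO and at 988 and 1227 in the HNF4α KO. All 5 KO libraries were below all WT libraries, and both HNF4α KO libraries were near or below the lowest of the C/EBPα KO. Slc25a13 was the only carrier of 38 called in the HNF4α KO (2.63%, beside 4.7% of all genes kept, 3.17% lower and 1.54% higher), with a change of -2.03 ± 0.39 (4.08-fold lower, limma adjusted p = 0.0132). Without HNF4α KO replicate 1, the library with muscle markers, its adjusted p was 0.191 and its change -1.87, and it also missed the threshold without HNF4α KO replicate 2 (0.0633) or WT replicate 1 (0.0643). In the C/EBPα KO the change was -1.34 ± 0.35 (limma adjusted p = 0.0647), and without C/EBPα KO replicate 3 it was -1.67 (adjusted p = 0.00983).

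Slc25a43 (ENSMUSG00000037636, chrX:34283654-34317197, plus strand) has no established substrate. It was at 7, 11 and 9 in WT, 48, 119 and 35 in the C/EBPα KO, and 27 and 20 in the HNF4α KO, so that no KO library overlapped WT. The estimate for the C/EBPα KO was 2.59 on the log2(value + 1) scale, and 1.88 with 10 added to each value. Only 1 WT library reached 10, so Slc25a43 met the value rule through the libraries in which it was high. With no filter on low values its limma adjusted p was 0.110, and without any 1 of 7 libraries, C/EBPα KO replicate 3 being the exception, it was 0.0746 to 0.203.

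**Figure D1:**
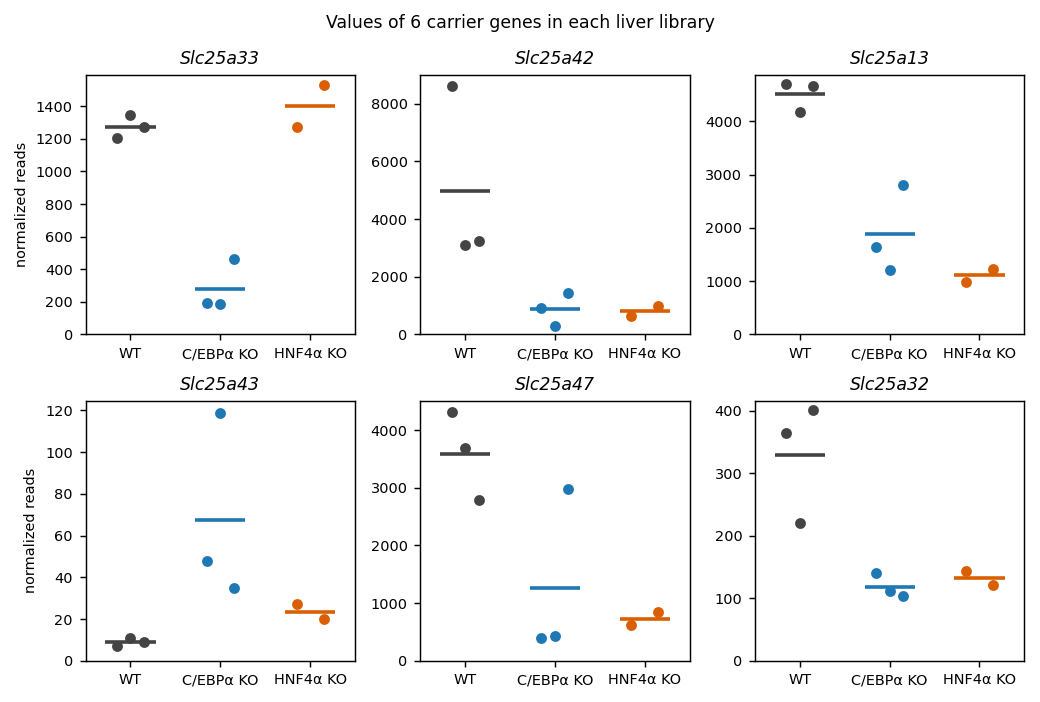
Normalized reads (vertical axis, starting at 0) of 6 carrier genes in each of 8 liver libraries (points), by group, with the group mean as a line (n = 3, 3 and 2). Slc25a33 is low only in the C/EBPα KO libraries (189 to 460, the other 5 libraries 1207 to 1528), while Slc25a42 and Slc25a13 are low in both knockouts and Slc25a47 has 1 C/EBPα KO library, at 2977, within the WT range.

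The sequence before the start of the 3 carriers that fell is shown because bound regions lay over or near it, with 2 other members that hold a match to a factor's motif. Each line gives the 250 bases upstream of the RefSeq start on the gene's own strand, 5′ to 3′, in build GRCm38.p6, with letters in capitals where they match a motif searched. The motifs were TTGCNNAA for C/EBP and CAAAGNNCA for HNF4, on both strands, where N is any base. Whether a RefSeq start is the start listed in the deposited table was not compared, since the builds differ.
Slc25a33: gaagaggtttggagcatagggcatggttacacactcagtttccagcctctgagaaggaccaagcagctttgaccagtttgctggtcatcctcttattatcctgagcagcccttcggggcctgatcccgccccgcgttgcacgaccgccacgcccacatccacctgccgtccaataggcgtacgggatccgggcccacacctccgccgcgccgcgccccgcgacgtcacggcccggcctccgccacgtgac
Slc25a42: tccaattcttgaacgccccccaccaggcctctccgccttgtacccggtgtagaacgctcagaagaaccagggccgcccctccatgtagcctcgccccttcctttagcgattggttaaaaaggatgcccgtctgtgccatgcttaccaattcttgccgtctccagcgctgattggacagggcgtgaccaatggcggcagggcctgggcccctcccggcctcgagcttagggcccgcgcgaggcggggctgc
Slc25a13: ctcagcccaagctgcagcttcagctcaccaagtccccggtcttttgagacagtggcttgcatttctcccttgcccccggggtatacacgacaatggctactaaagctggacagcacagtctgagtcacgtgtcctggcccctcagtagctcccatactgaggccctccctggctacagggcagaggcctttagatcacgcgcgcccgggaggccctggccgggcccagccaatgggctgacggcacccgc
Slc25a12: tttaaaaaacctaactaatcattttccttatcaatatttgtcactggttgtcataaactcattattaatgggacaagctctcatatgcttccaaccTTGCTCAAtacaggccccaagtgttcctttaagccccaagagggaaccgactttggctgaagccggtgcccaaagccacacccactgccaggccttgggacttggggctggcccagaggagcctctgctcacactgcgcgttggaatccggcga
Slc25a48: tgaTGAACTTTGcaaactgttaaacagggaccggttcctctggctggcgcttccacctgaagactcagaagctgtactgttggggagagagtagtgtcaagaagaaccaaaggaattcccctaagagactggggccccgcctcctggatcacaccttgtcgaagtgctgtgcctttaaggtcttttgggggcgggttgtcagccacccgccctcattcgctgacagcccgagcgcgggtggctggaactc
The upstream stretches of Slc25a33, Slc25a42 and Slc25a13 held no match to either motif. Slc25a12 held the C/EBP match TTGCTCAA at bases -154 to -147 counted from the start, and Slc25a48 held TGAACTTTG, which is the HNF4 motif on the other strand, at bases -247 to -239. Promoters were listed for 30 of the 38 members. A C/EBP match was present in 2 of 30 (6.67%, Slc25a12 and Slc25a25) and in 10.8% of the 27025 genes listed, and an HNF4 match in 2 of 30 (6.67%, Slc25a25 and Slc25a48) and in 6.29%. The motif of NRF1, a regulator of mitochondrial genes, was found in Slc25a3 alone (3.33%, all genes 5.64%), and AAGGTCA of the estrogen-related receptors in Slc25a34 alone (3.33%, all genes 4.7%).

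Bound regions lay at or near the starts of the carriers that fell, but such regions were common. At P0.5 a C/EBPα region lay within 10 kb of 92.1% of the 38 carriers and 81.8% of all protein-coding genes kept. A region was counted as bound at a stage where peaks of both replicates overlapped, and distances run from the start of the gene as listed in mm9 to the nearest base of the region. At Slc25a33 a C/EBPα region covered the start at E18.5 (chr4:149148363-149148677) and P0.5, and the nearest one lay 1662 and 1725 bp upstream at P14 and P60. The nearest HNF4α region at Slc25a33 lay 19721 bp away at E18.5 and 730 bp upstream at P60. Slc25a42 had regions of both factors within 1 kb at each stage from E18.5, the nearest C/EBPα region being 202 bp upstream at E18.5 (chr8:72736406-72737345) and the nearest HNF4α region 284 bp upstream (chr8:72736488-72736949). At E15.5 HNF4α was bound 192 bp from its start and C/EBPα 6727 bp from it. At Slc25a13 an HNF4α region covered the start at 4 of 5 stages, among them P60 (chr6:6165965-6167672), and lay 2482 bp upstream at E18.5. C/EBPα was bound 11151 bp from the Slc25a13 start at E15.5 and within 88 bp of it at the later stages. Slc25a43 had no C/EBPα region within 10 kb at any stage and an HNF4α region within 10 kb at E15.5 alone, 6926 bp away.

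The carriers that did not pass the threshold are given by role. All 3 ATP and phosphate carriers had KO libraries within the WT range. Slc25a5, the ADP/ATP carrier of most tissues, stood at 4235, 3147 and 3442 in WT, 3789, 7929 and 2936 in the C/EBPα KO, and 5091 and 3209 in the HNF4α KO. Slc25a3, the phosphate carrier, stood at 2005, 6089 and 2081 in WT, 2673, 3165 and 2332 in the C/EBPα KO, and 3834 and 4932 in the HNF4α KO. Slc25a4, the ADP/ATP carrier of heart and skeletal muscle, stood at 1839 to 2636 in WT, 1409 to 2551 in the C/EBPα KO, and 10136 and 2161 in the HNF4α KO. Of the calcium-regulated ATP-Mg/phosphate carriers, Slc25a23 was at 1440 to 1767 in WT and 629 to 1030 in the C/EBPα KO, with no overlap (log2 -0.97 ± 0.30, limma adjusted p = 0.133). Slc25a24 and Slc25a25 overlapped between WT and each KO. Slc25a23 overlaps Crb3 on the opposite strand, which was at 194 to 410 in WT and 215 to 465 in the C/EBPα KO, and whether reads were counted by strand is not given in the sources used here.

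The estimates of the carboxylate carriers differed in direction. Slc25a11, the oxoglutarate-malate exchanger of the malate-aspartate shuttle, stood at 3221, 2736 and 1789 in WT, 1191, 1569 and 1209 in the C/EBPα KO, and 3565 and 1997 in the HNF4α KO. Its C/EBPα KO libraries lay below every other library (log2 against WT -0.93, limma adjusted p = 0.222). It shares sequence with Rnf167 on the other strand, which was at 1242 to 1731 in WT and 1202 to 1633 in the C/EBPα KO. Slc25a10, the dicarboxylate carrier, was at 273 to 390 in WT, 451 to 932 in the C/EBPα KO and 497 to 608 in the HNF4α KO, above WT in each KO library. Its change in the C/EBPα KO was 0.99 ± 0.35 (limma adjusted p = 0.187). Slc25a1, the citrate carrier that feeds cytosolic acetyl-CoA to fatty acid synthesis, was at 724 to 1079 in WT, 779 to 1239 in the C/EBPα KO, and 1077 and 1008 in the HNF4α KO. Slc25a21, the oxoadipate carrier, was at 147 to 241 in WT, 195 to 518 in the C/EBPα KO and 112 to 132 in the HNF4α KO.

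The other amino acid carriers overlapped between WT and each KO. Slc25a12, the aspartate-glutamate carrier of muscle and brain and the closest relative of Slc25a13, was at 493 to 684 in WT, 629 to 853 in the C/EBPα KO, and 1797 and 553 in the HNF4α KO. Slc25a22, a glutamate carrier, was at 772 to 1585 in WT and 405 to 1479 in the C/EBPα KO. Slc25a29, a carrier of basic amino acids, was at 138 to 169 in WT, 29, 39 and 205 in the C/EBPα KO, and 113 to 207 in the HNF4α KO. Slc25a38, which brings in glycine for heme synthesis, was at 1286 to 2052 in WT, 1722 to 3654 in the C/EBPα KO and 1693 to 2028 in the HNF4α KO.

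Cofactor carriers other than Slc25a33 and Slc25a42 had smaller estimates. Slc25a32, a folate and FAD carrier, was at 220 to 401 in WT, 103 to 141 in the C/EBPα KO and 121 to 143 in the HNF4α KO, below WT in all 5 KO libraries. Its changes were -1.43 ± 0.38 in the C/EBPα KO (limma adjusted p = 0.0685) and -1.27 in the HNF4α KO (adjusted p = 0.12). Slc25a16, also assigned to coenzyme A transport, was at 332 to 404 in WT, 141 to 286 in the C/EBPα KO and 277 to 293 in the HNF4α KO. Slc25a17, the peroxisomal member, was at 342 to 527 in WT and 557 to 930 in the C/EBPα KO, above WT in each library. Slc25a26 (S-adenosylmethionine) and Slc25a36 (pyrimidine nucleotides, the closest relative of Slc25a33) overlapped between WT and each KO. Slc25a36 was at 222 to 428 in WT and 99 to 308 in the C/EBPα KO.

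The iron and glutathione carriers include the members with the most reads, a number that also depends on transcript length, and none of them passed in either KO. Slc25a37 (mitoferrin-1), which imports iron in red cell precursors, stood at 21015, 22650 and 18827 in WT, 21753, 20350 and 24109 in the C/EBPα KO, and 29997 and 28879 in the HNF4α KO. Slc25a39, a glutathione carrier, stood at 6012, 9702 and 3312 in WT, 3734, 4315 and 5744 in the C/EBPα KO, and 13716 and 13683 in the HNF4α KO. Both HNF4α KO libraries were above every other library for each of these genes (Slc25a39 log2 1.24, limma adjusted p = 0.169). Summed over 17 erythroid markers, none of which was at 0, the level was 1061255 to 4005251 in WT, 1226995 to 2367913 in the C/EBPα KO, and 6983655 and 4088290 in the HNF4α KO, highest in the HNF4α KO as for Slc25a39, and its part in their values was not tested. Slc25a28 (mitoferrin-2), the iron importer of other cells, was at 207 to 378 in WT and 303 to 476 in the KO libraries. Slc25a40, related to Slc25a39, was at 65 to 116 in WT and 21 to 56 in the HNF4α KO.

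The orphan and other members hold the liver carrier Slc25a47. It stood at 4312, 3682 and 2781 in WT, 387, 431 and 2977 in the C/EBPα KO, and 620 and 845 in the HNF4α KO. C/EBPα KO replicate 3 lay inside the WT range and the other 4 KO libraries lay below it. The change in the C/EBPα KO was -2.16 ± 0.65 (limma adjusted p = 0.115), and without C/EBPα KO replicate 3 it was -3.11 (adjusted p = 0.000327). In the HNF4α KO it was -2.29 ± 0.72 (adjusted p = 0.103). Slc25a29 lies 15246 bp from Slc25a47 on the opposite strand of chromosome 12, and its C/EBPα KO libraries had the same order, 29 and 39 against 205. Slc25a47 carried a C/EBPα region 189 to 360 bp inside the gene at all 5 stages, with 1 region within 10 kb at E15.5 and 11 at P0.5. Slc25a48, whose start was covered by regions of both factors at P0.5, P14 and P60, was at 110 to 188 in WT, 59 to 95 in the C/EBPα KO and 70 to 72 in the HNF4α KO (log2 -1.06, adjusted p = 0.258, and -1.10, adjusted p = 0.216). Slc25a46, which acts in mitochondrial dynamics at the outer membrane, was at 527 to 816 in WT and 294 to 355 in the HNF4α KO (log2 -1.02, adjusted p = 0.118). Slc25a14 and Slc25a27, relatives of the uncoupling proteins, and Slc25a34, Slc25a35 and Slc25a45 were not called in any comparison.

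**Figure D2:**
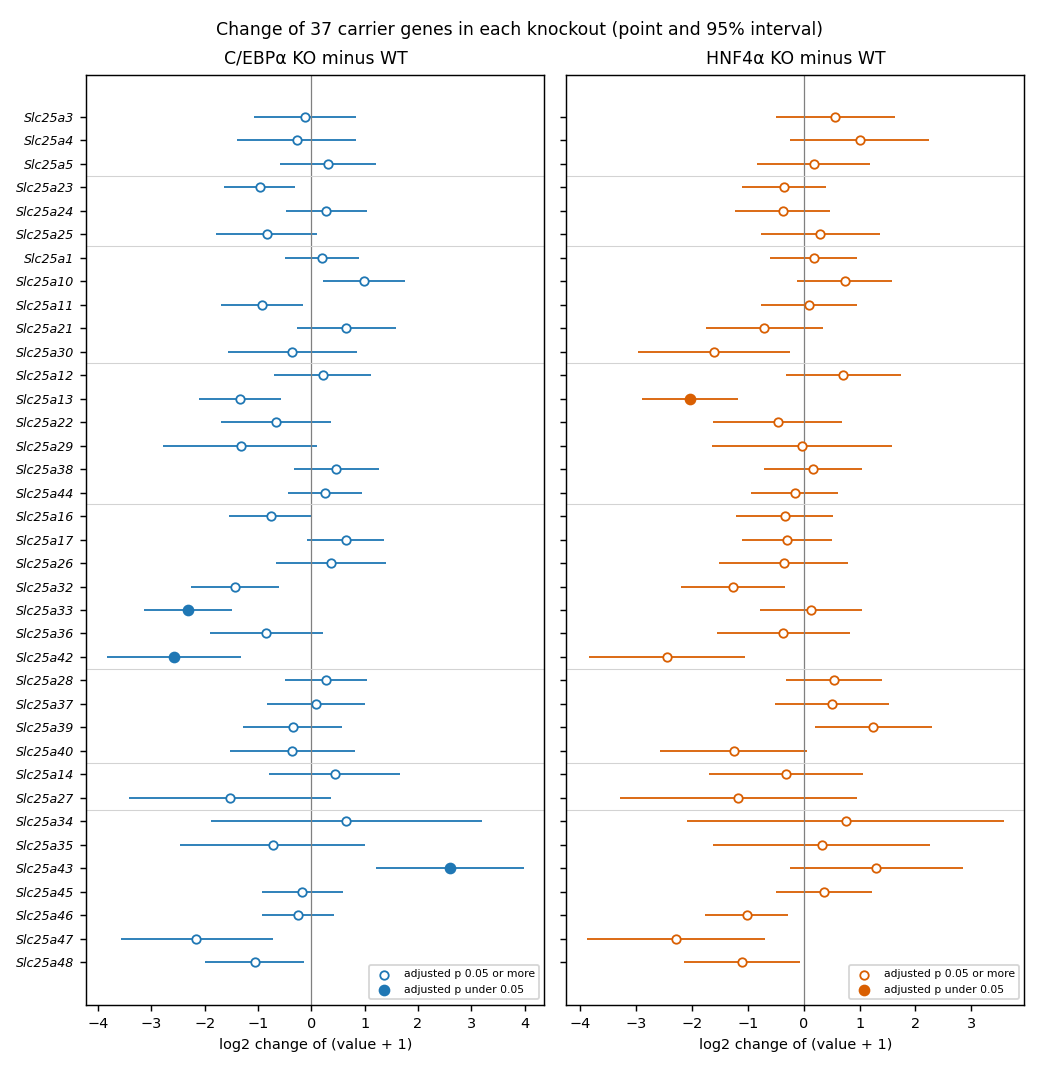
Log2 change of (value + 1) with its 95% interval (horizontal axis) for each of 37 carriers, C/EBPα KO minus WT on the left and HNF4α KO minus WT on the right, with grey lines between roles. Filled points have a limma adjusted p under 0.05 over all genes: Slc25a33, Slc25a42 and Slc25a43 on the left (the last met the value rule through its KO libraries) and Slc25a13 on the right; both panels share the WT libraries.

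Counted by libraries that do not overlap, 8 carriers were lower and 3 higher in the C/EBPα KO than in WT, together 28.9%, beside 18.8% of all genes kept (10.3% lower and 8.54% higher). The lower ones were Slc25a11, Slc25a13, Slc25a16, Slc25a23, Slc25a32, Slc25a33, Slc25a42 and Slc25a48, and the higher ones Slc25a10, Slc25a17 and Slc25a43. Slc25a43 met the value rule through its KO libraries and is counted as higher in both knockouts, so the counts that hold it are a description only. In the HNF4α KO, 12 carriers were lower (31.6%, all genes 22.4%) and 4 higher (10.5%, all genes 22.1%). Both directions together made 42.1%, beside 44.6% of all genes. The total was thus near the background, while the shares by direction differed from it, and no test of these shares was made. Of the lower ones, Slc25a21, Slc25a27, Slc25a30, Slc25a40, Slc25a46 and Slc25a47 did not have separate libraries in the C/EBPα KO. Between the knockouts, 13 carriers did not overlap (34.2%), beside 34.4% of all genes (6 higher and 7 lower, all genes 17.4% and 17.0%). Both comparisons with WT share the 3 WT libraries, so lower values in both knockouts are not independent of each other.

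Single libraries set several of these values. C/EBPα KO replicate 3 was the highest of its group for 23 of 38 carriers (60.5%), beside 38.2% of all genes kept. The other C/EBPα KO libraries were both below every WT library for 14 carriers (36.8%), beside 16.4% of all genes, and replicate 3 was the highest of its group for 11 of those 14 (78.6%), beside 62.7% of such genes overall. Cebpa itself was highest in replicate 3 among the C/EBPα KO libraries, at 998. Without that library 6 carriers had an adjusted p under 0.05 in the C/EBPα KO (15.8%), namely Slc25a13, Slc25a29 and Slc25a47 beside the 3 above, and the genes called overall also grew, from 666 (3.75%) to 801 (4.51%). HNF4α KO replicate 1, the library with muscle markers, exceeded every other library more than 2-fold for 3 carriers (7.89%), beside 3.22% of all genes. These were Slc25a4 at 10136, Slc25a12 at 1797 and Slc25a34, an orphan carrier, at 174, against 7 to 2161 for the same genes in the other HNF4α KO library. Without HNF4α KO replicate 1 the change of Slc25a4 turned from 1.00 ± 0.57 to -0.11, and the part of the muscle markers in it was not tested.

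**Figure D3:**
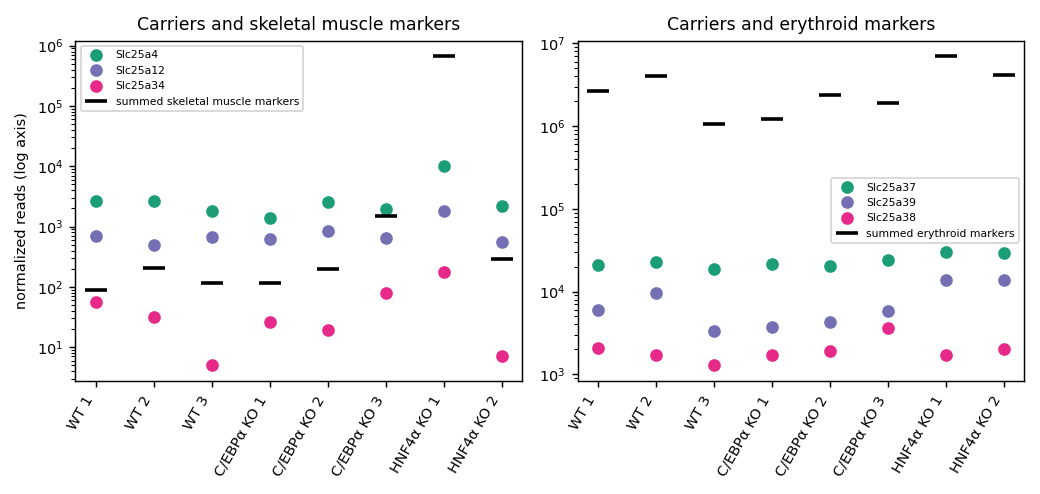
Normalized reads (log axis) of 3 carriers per panel in each of 8 libraries (points), with the summed level of 14 skeletal muscle markers (left) and 17 erythroid markers (right) as black bars. Slc25a4, Slc25a12 and Slc25a34 peak in HNF4α KO replicate 1, where the muscle sum is 668871. Slc25a37 and Slc25a39 are highest in both HNF4α KO libraries, where the erythroid sum is 4088290 or more (WT replicate 2, 4005251). Slc25a38 is not: it is at 1693 and 2028 there and highest in C/EBPα KO replicate 3, at 3654.

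Binding near carrier starts was wide and changed in reach with stage. A C/EBPα region lay within 10 kb of the start in 10, 32, 35, 27 and 29 of 38 carriers at E15.5, E18.5, P0.5, P14 and P60, which is 26.3%, 84.2%, 92.1%, 71.1% and 76.3%. Among all protein-coding genes kept these shares were 21.0%, 69.2%, 81.8%, 52.5% and 53.4%. An HNF4α region lay within 10 kb in 28, 12, 25, 22 and 27 carriers (73.7%, 31.6%, 65.8%, 57.9% and 71.1%), beside 52.5%, 20.3%, 44.0%, 41.7% and 51.4% of all protein-coding genes. The number of bound regions differed between stages, from 10419 to 94619 for C/EBPα and from 18359 to 36322 for HNF4α, and for C/EBPα the counts of carriers had the same order as these numbers. The HNF4α lists of P0.5 were identical and count as 1 replicate. At E18.5 the HNF4α replicates held 53278 and 41199 peaks and shared 18359 regions. At P14 they held 28222 and 29506 peaks and shared 23800. With either E18.5 list alone, 13 to 16 carriers had an HNF4α region within 10 kb. The part of replicate agreement in the low HNF4α counts of E18.5 was not tested. Within 1 kb of the start, C/EBPα regions were found at 4, 21, 26, 16 and 18 carriers, beside 7.54%, 36.5%, 52.0%, 29.6% and 27.4% of all protein-coding genes. HNF4α regions within 1 kb were found at 20, 7, 15, 17 and 23 carriers, beside 24.6%, 6.36%, 25.2%, 23.9% and 32.7%. Regions of both factors lay within 10 kb of 9, 12, 24, 22 and 25 carriers, beside 16.5%, 18.2%, 41.3%, 32.7% and 39.3% of all protein-coding genes. No test of these shares was made.

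**Figure D4:**
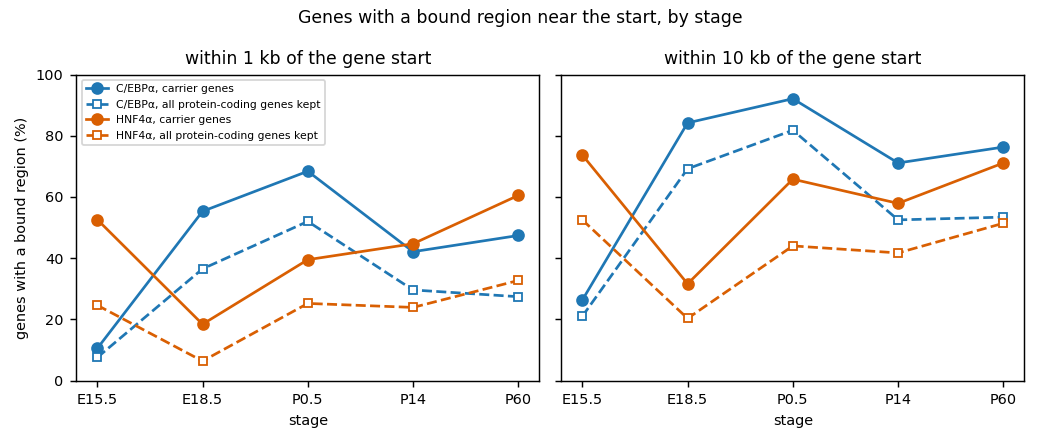
Percent of genes (vertical axis) with a bound region of C/EBPα or HNF4α within 1 kb (left) or 10 kb (right) of the start at 5 stages, for 38 carriers (filled points, solid lines) and 14942 protein-coding genes kept (open squares, dashed lines). The carriers lie above all genes at each stage. HNF4α is lowest at E18.5 in both sets (31.6% and 20.3% within 10 kb) and C/EBPα is lowest at E15.5. The HNF4α lists of E18.5 held 53278 and 41199 peaks but shared 18359 regions.

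Individual carriers differed in which factor was near. A C/EBPα region lay within 10 kb at every stage in 10 of 38 carriers, beside 19.0% of all protein-coding genes, and at no stage in 3, beside 15.9%. For HNF4α these were 11 carriers, beside 16.6%, and 7, beside 33.0%. Slc25a12 had a C/EBPα region over its start at each stage from E18.5 (chr2:71205716-71206209 at E18.5) and no HNF4α region within 50 kb at any stage, whereas its relative Slc25a13 had both. Slc25a10 had an HNF4α region over its start at all 5 stages, and Slc25a1 and Slc25a44 had one at 4 stages and within 268 and 9 bp at E18.5. Slc25a40 had no region of either factor within 10 kb, and Slc25a38 had no HNF4α region within 50 kb. Of the 8 carriers lower without overlap in the C/EBPα KO, 3 had a C/EBPα region within 10 kb at E15.5 and all 8 at each later stage. Of the 27 that overlapped, 6, 22, 25, 17 and 19 had one at E15.5, E18.5, P0.5, P14 and P60. Of the 3 higher, 1, 2, 2, 2 and 2 had one. Of the 12 lower in the HNF4α KO, 10, 6, 10, 9 and 10 had an HNF4α region within 10 kb at these stages. Of the 22 that overlapped, 14, 4, 12, 10 and 14 had one, and of the 4 higher, 4, 2, 3, 3 and 3. The higher carriers of both knockouts include Slc25a43, which met the value rule through its KO libraries. Binding was not counted by direction of change over all genes, and no test was made.

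**Figure D5:**
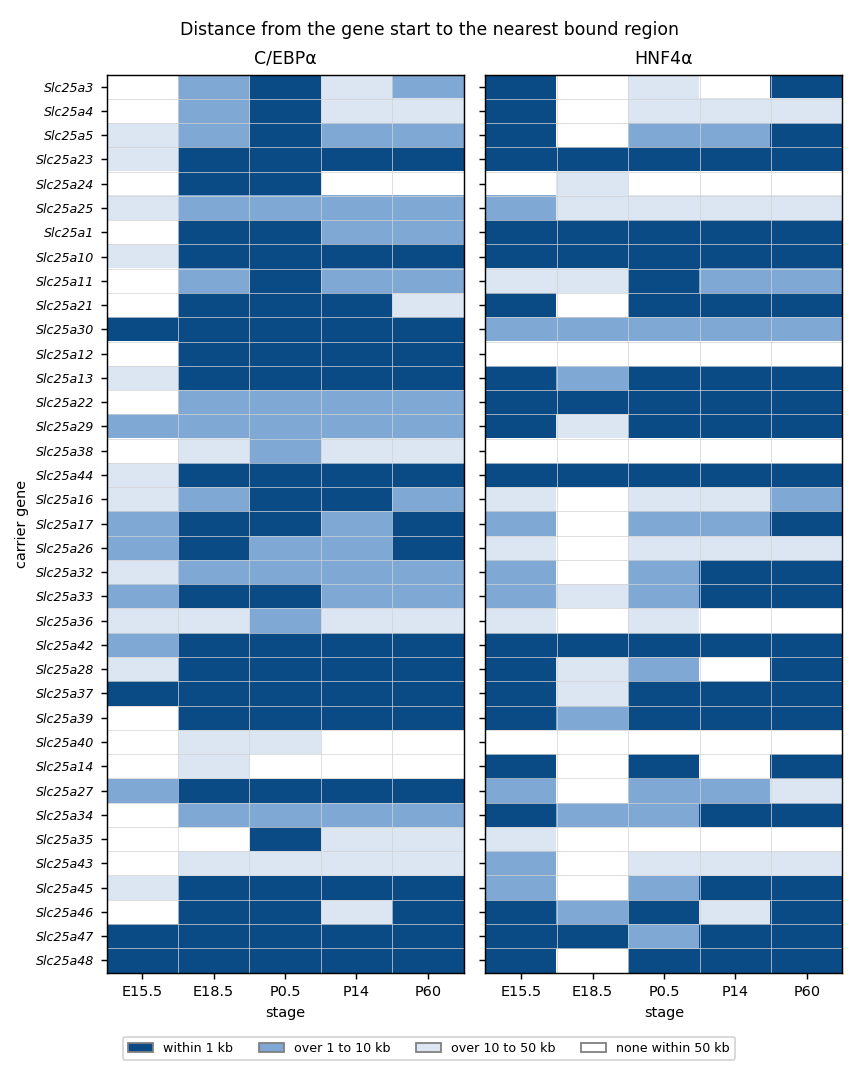
Distance from the gene start to the nearest bound region for each of 37 carriers (rows, ordered by role) at 5 stages (columns), for C/EBPα (left) and HNF4α (right). Darker cells are closer: Slc25a42, Slc25a13 and Slc25a48 have C/EBPα within 1 kb at each stage from E18.5, Slc25a12 has no HNF4α region within 50 kb, and Slc25a40 has neither factor within 10 kb.

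Enzymes and channels that work with the carriers were read from lists of their pathways. These lists were chosen with earlier results of these data known, so the counts are a description only. Among all genes kept, 2.86% passed as lower and 0.883% as higher in the C/EBPα KO. In the HNF4α KO these shares were 3.17% and 1.54%. Of 6 urea cycle enzymes, which work with Slc25a13, 4 fell in the C/EBPα KO, among them Cps1 from 35402 to 52397 in WT to 87 to 625 in the KO (log2 -7.62 ± 0.59, limma adjusted p = 4.5e-05). The others were Arg1 (-4.40), Ass1 (-1.77) and Asl (-1.50), with limma adjusted p of 4.5e-05, 0.015 and 0.038. Of the same 6, 2 fell in the HNF4α KO, namely Otc (-4.81 ± 0.39, limma adjusted p = 0.000171) and Asl (-1.84, adjusted p = 0.0223). Of 10 enzymes of the malate-aspartate and citrate shuttles, Got1, the cytosolic aspartate transaminase, fell from 1120 to 4052 in WT to 235 to 293 in the C/EBPα KO (-3.12 ± 0.43, limma adjusted p = 0.0019). Pcx, pyruvate carboxylase, fell there as well (-2.67 ± 0.52, adjusted p = 0.0143), and none of the 10 passed in the HNF4α KO. Of 5 pyruvate carrier subunits and outer membrane channels, Brp44l, a subunit of the mitochondrial pyruvate carrier outside the Slc25 family, fell in the C/EBPα KO (2188 to 3720 in WT, 229 to 617 in the KO, log2 -3.11 ± 0.41, limma adjusted p = 0.00142). Brp44l stood at 2455 and 2045 in the HNF4α KO, and the C/EBPα KO was lower than the HNF4α KO (-2.77, limma adjusted p = 0.0088). No gene passed in either KO among 15 that import carriers into the inner membrane, 11 of heme synthesis and 24 of the respiratory chain and ATP synthase. Of 5 family members tested under other symbols, Mtch1, a carrier-like protein of the outer membrane, rose in the HNF4α KO, from 808 to 1264 in WT to 4303 and 2518 (1.69 ± 0.41, limma adjusted p = 0.0393). Ucp1, the uncoupling protein of brown fat, was at 0 or 1 in every library.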

How the data were processed

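RNA values were deposited by the authors as a score per Ensembl gene, which is a read number scaled by 1 size factor for each library and then rounded, in a table named DESeq-normalized. Each of 8 sample files held the same values as the table. The tools of the authors, per the submitters' processing notes, are MACS 1.4, DESeq, TopHat2, BWA, Cufflinks, bedtools, FastQC and bcl2fastq, and the build is mm9. Low values are spaced by what 1 read is worth, from which 14.0 to 32.5 M reads per library were estimated. The peak lists deposited by the authors give the start and end of each peak and a score of 0 throughout, so peak height was not used. RNA polymerase II (10) and input (10) samples were not used.

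Genes were kept where 2 or more libraries reached 10. Log2(value + 1) was fitted for all 8 libraries with limma 3.58.1 (R 4.3.3), with a variance trend and a term for group. Calls are 2-sided at 0.05 after Benjamini-Hochberg adjustment across the genes kept. The fit was tested on simulated data in which libraries varied independently around each gene's mean. That simulation held no library with muscle markers and no libraries that deviate together, so it cannot show how such libraries affect the calls. Fold changes are on the log2(value + 1) scale and understate those of low genes. A bound region is a merged region with peaks of both replicates overlapping by at least 1 bp. Promoters are from RefSeq (GRCm38.p6). Values in every library are given for carriers called in any comparison and for the 8 with the highest WT mean, and other carriers by range; Slc25a4, Slc25a12, Slc25a29 and Slc25a34 were singled out after their values were seen. Genes of the pathway lists are named only where called against WT or between the knockouts, apart from Ucp1, which did not meet the value rule and was not tested. Of the carriers, 1 is counted in the totals and not reported here on its own. Members and lists were chosen with earlier results of these data known.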

Additional observations from a re-analysis of the deposited data

How the results depend on the processing

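Alternatives were another added constant, other filters, scaling to library totals or the upper quartile, no variance trend, only the groups compared, a replicate block, and fits without libraries; filtering at 50 removed Slc25a43. The fall of Slc25a33 in the C/EBPα KO passed in 16 of 17 alternatives (adjusted p 0.000333 to 0.0992, limma) and that of Slc25a13 in the HNF4α KO in 12 of 17 (0.00313 to 0.191). Slc25a42 passed in 5 of 17 (0.0117 to 0.149) in the C/EBPα KO. Slc25a33 between knockouts passed in 14 of 17 (0.00141 to 0.114). Scaling to library totals moved the median of all genes from 0.03 to 0.53 in the C/EBPα KO, where 40.6% of calls were then lower in place of 76.4%, and to 0.57 between the knockouts (21.3% in place of 53.6%). Slc25a10 was then called in the C/EBPα KO (1.50, adjusted p = 0.0294). The change of Slc25a4 in the HNF4α KO ranged from -0.11, a reversal, without HNF4α KO replicate 1 to 2.12 without replicate 2.

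Genes called in the C/EBPα KO numbered 666, between 309 and 801 with each library left out, and 219 without WT replicate 3 and C/EBPα KO replicate 1 together. The HNF4α KO had 836, 1267 with only the 2 groups, 486 with the replicate block, 212 to 1345 with each library left out and 350 with that pair left out. Between the knockouts they numbered 619, 403 with no filter, 320 with only the 2 groups, 288 with the replicate block, 86 to 849 with each library left out and 136 with that pair left out. Carriers called in the C/EBPα KO, Slc25a43 included, numbered 3, 1 with no filter, 1 with only the 2 groups, 1 to 6 with each library left out and 0 with that pair left out. The HNF4α KO had 1, 3 with only the 2 groups, 0 with the replicate block, 0 to 3 with each library left out and 0 with that pair left out. Between the knockouts they numbered 1, 0 to 2 with each library left out and 0 with that pair left out. The cause of these differences was not tested. A group reduced to 1 library was assumed to vary like the others. Same-numbered libraries did not deviate together (correlations -0.06, 0.19 and -0.23 between WT and the C/EBPα KO), so the replicate block is not a pairing. With the block, Slc25a13 in the HNF4α KO had a limma adjusted p of 0.0573. Libraries with other numbers did deviate together. WT replicate 3 and C/EBPα KO replicate 1, the pair left out above, had a correlation of 0.49. For WT replicate 2 and C/EBPα KO replicate 1 it was -0.42. What these libraries share was not tested.

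Carriers with a C/EBPα region at E15.5 numbered 10, 20 with peaks of either replicate, 4 within 1 kb, 22 within 50 kb, and 12 to 18 with each replicate left out. Within 1 kb, C/EBPα counts were 21 at E18.5, 16 at P14 and 18 at P60. For HNF4α they were 7 at E18.5, where 19 had a region within 50 kb, and 15 at P0.5.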
